A study of Saccharomyces cerevisiae with 46 samples.

Results

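The mitochondrial ribosomal protein genes described here are nuclear genes of Saccharomyces cerevisiae whose products make up the large and small subunits of the mitochondrial ribosome. They were chosen as a list of 54 names, 34 of the large and 20 of the small subunit. The rule used gene names and no measured value, but earlier results of these data were known. The 3 RNA-seq tables held 53 of them, 33 of the large and 20 of the small subunit, among 5572 genes in the table of spt4Δ and WT cells and 4835 genes in each of the tables of the depletion experiments. MRPL10 was not analysed here. All 53 members passed the filter on low values in each comparison, which left 5278, 4684 and 4665 genes in all. The filter used the mean over both groups, and MRPL25 passed it after Spt5 depletion only through the depleted libraries.

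RNA-seq was made from total RNA depleted of ribosomal RNA, with S. pombe cells added to each culture before lysis as a spike-in. WT cells were BY4741 with FLAG-tagged Rpb3 (RPB3-3xFLAG), and spt4Δ cells carried the same tag and a deletion of SPT4, with 2 libraries of each. The anchor-away strains shared tor1-1, fpr1Δ, RPL13-2xFKBP12 and RPB3-3xFLAG, and carried SPT4-FRB-eGFP or SPT5-FRB-eGFP. In such cells rapamycin joins the FRB-tagged protein to a ribosomal protein and draws it out of the nucleus. Cells in YPD at 30 °C received rapamycin for 140 min to deplete Spt4 (Spt4-AA, 2 libraries) or for 180 min to deplete Spt5 (Spt5-AA, 2 libraries), or DMSO for 120 min (1 library of each strain). The 2 DMSO libraries were the controls of both depletions, so these comparisons are not independent of each other. Treatment and harvest time changed together and cannot be told apart. No RNA-seq library of the series was labelled as rapamycin-treated cells with no FRB tag.

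Spt4 and Spt5 form a complex that travels with RNA polymerase II during elongation. The mitochondrial ribosome translates the few proteins encoded by mitochondrial DNA, which are mainly subunits of the respiratory chain, while its own proteins are nearly all transcribed in the nucleus, translated in the cytosol and imported. In S. cerevisiae many of their mRNAs are bound after the stop codon by the RNA-binding protein Puf3, which promotes decay of its targets in glucose medium.

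Between 798455 and 6814227 reads per library lay on the genes of the tables. The deposited normalized counts were rescaled so that a fold change is relative to the median gene of its table. Without this rescaling the median gene had a log2 fold change of 0.83 in spt4Δ, -0.28 in Spt4-AA and -1.84 in Spt5-AA. The tables do not tell fewer cells from less RNA per cell. SPT4 had rescaled normalized counts of 450 and 479 in the WT libraries, against 0 and 2.82 in spt4Δ, and FPR1 had 11.7 and 15.1 in the DMSO libraries against 1626 and 1659 in WT. SPT4 was thus near 0 in spt4Δ. FPR1 was low but not 0 in the DMSO libraries of the fpr1Δ strains, and its WT values come from a table that was scaled separately.

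The sequences after the stop codons are shown first, because they are the feature that the members shared most. The Puf3 motif TGTANATA, where N is any base, was searched on the transcribed strand in the 300 bases after the stop codon. It was found in 52 of 53 members (98.1%), against 914 of 5317 annotated genes (17.2%). On the opposite strand, where Puf3 would not meet it, 11 of 53 members (20.8%) and 16.1% of all genes held it. All 33 large-subunit members and 19 of 20 small-subunit members had a match, and the exception was RSM22. The 52 members held 68 matches, with 1 match in 38 members and 2 or more in 14. The match nearest to the stop codon started between 8 and 139 bases after it, with a median of 51. A C stood 2 bases before the match in 43 of the 68 (63.2%), against 278 of 996 matches over all genes (27.9%). The form TGTAAATA was present in 28 members (52.8%) and in 5.23% of all genes. These counts describe letters in a window and do not show binding.

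The first match after the stop codon is given below for the 6 members with the largest called fall and for 5 of the 6 with the largest called rise in Spt5-AA, since RSM22 had none. RSM19 has further matches that are not shown, among them TGTAAATA starting 38 bases after the stop codon. Sequences are from the RefSeq R64 assembly, 5′ to 3′ on the transcribed strand, with the motif in capitals.
RSM26, chromosome X, 619111 to 619140, plus strand: atcttatatacTGTAAATAgttttatttta
MRPL37, chromosome II, 741638 to 741667, plus strand: tttggtatcctTGTAAATAaatatgtgtgt
MRPL22, chromosome XIV, 303532 to 303561, minus strand: tattgtgattcTGTAAATAacaactagttt
MRPL7, chromosome IV, 937564 to 937593, plus strand: cccattcgtcaTGTAAATAtataaactgta
MRPS9, chromosome II, 536224 to 536253, plus strand: ttcgttattccTGTAAATAaagttatatgt
MRPS18, chromosome XIV, 58860 to 58889, plus strand: atatatattcgTGTAAATAattcgattttt
MRPL25, chromosome VII, 637008 to 637037, minus strand: atgtctaatcaTGTAAATAattttgtgata
MRPL50, chromosome XIV, 669719 to 669748, minus strand: gcgtacaatctTGTATATAggcaacatcgc
MRPL31, chromosome XI, 185225 to 185254, minus strand: aaaatttcatcTGTATATAgtttaatcatt
RSM19, chromosome XIV, 695022 to 695051, minus strand: gggatctagTGTATATAgatttctagatga
RSM27, chromosome VII, 922547 to 922576, plus strand: aactcatttcaTGTACATAcaaaatcaaaa

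None of the motifs searched in the promoters was shared by most members, and other promoter features were not examined. From 250 bases before to 50 after the first base of the start codon, on either strand, CCAAT (the motif of the Hap complex, an activator of respiratory genes) was found in 22 of 53 members and 43.8% of all genes. TATAAA was found in 18 members and 44.3% of all genes, and TTACCCG, the Reb1 motif, in 6 members and 7.33%. The members with TATAAA were 15 of 33 of the large and 3 of 20 of the small subunit. The palindrome AAAATTTT was found in 3 members and 9.37% of all genes. The members lay on 13 chromosomes. The nearest gene upstream was divergent for 32 members and tandem for 21, and 1 member, MRPL44, had an intron within its coding sequence. MRPL19, MRPL51 and MRP4 overlap another annotated gene (YNL184C, YPR099C and YHL005C), and since the strand used in counting is not given in the sources used here, reads of the partners cannot be told apart.

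In WT cells the members were transcripts of intermediate abundance with a wide range. Their median level was 414 rescaled normalized counts per kb of coding sequence, against 239 over the 5129 genes tested that had an annotated length. The large-subunit median was 324 and the small-subunit median 425. MRPL37, a protein of the large subunit that has no bacterial counterpart, had the highest level, with 1904 and 2376 per kb in the 2 libraries. It was followed by MRPL39, a large-subunit protein related to a bacterial one, with 1354 and 1522 per kb. MRPS18, of the small subunit, had 1260 and 1463 per kb, which overlaps the values of MRPL39. At the lower end were MRPL35 with 72.2 and 66.0, MRPL25 with 64.4 and 64.7 and MRPL4 with 22.1 and 22.0 per kb. The range from MRPL4 to MRPL37 was 97.1-fold. Of the neighbours in this order, 43 pairs had overlapping values, so that the order is resolved mainly at its ends. The order was nearly the same in the DMSO libraries (Spearman's rho 0.96 over 53 members, a description across genes that share libraries).

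**Figure D1:**
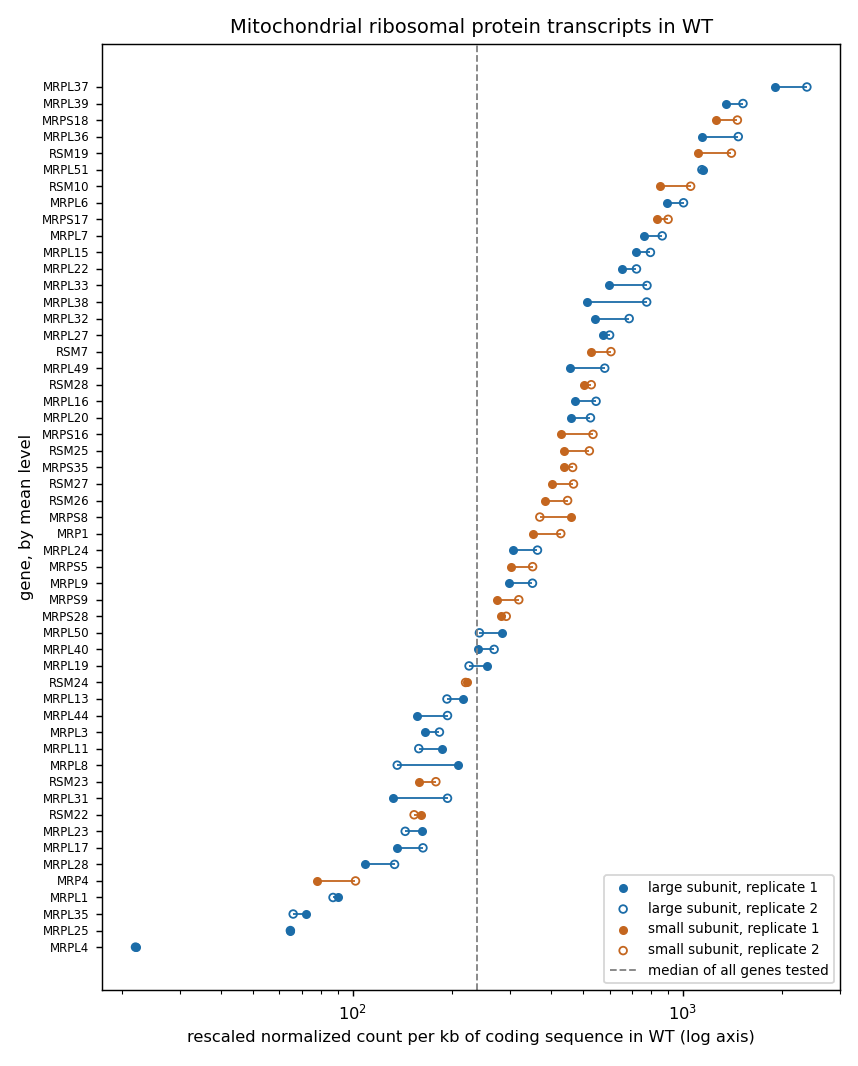
Rescaled normalized count per kb of coding sequence (log axis) of each of the 53 members in the 2 WT libraries, ordered by the mean, with large-subunit genes in blue and small-subunit genes in orange. The dashed line is the median of all genes tested, 239 per kb. MRPL37 stands at the top and MRPL4 at the bottom, 97.1-fold apart.

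The first comparison asked whether these transcripts changed where SPT4 was absent for good. In spt4Δ cells no member was called, against 1.04% of all genes (0.682% higher and 0.36% lower, by limma with a Benjamini-Hochberg adjusted p under 0.05, two-sided). A single member, MRPL16, had an unadjusted p under 0.05, against 10.7% of all genes, and neither edgeR nor DESeq2 on the reads recovered from the tables called a member. The median log2 fold change of the members was 0.03, beside -0.01 for all genes tested, with 29 of 53 members above 0. It was 0.02 for the large and 0.03 for the small subunit. The libraries did not overlap in 5 members that were higher and 9 that were lower in spt4Δ, or 9.4% and 17.0% of members, where 20.2% and 20.3% of all genes did so. The median standard error of a member was 0.24 on the log2 scale. Log2 fold changes of 0.54 (MRPL16) and 0.45 (MRPL8) did not pass the test, so changes of that size in single members can be missed with these libraries. No detection limit was computed.

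MRPL16, a large-subunit protein with a bacterial counterpart, had 330 and 382 rescaled normalized counts in WT and 569 and 468 in spt4Δ. Both spt4Δ libraries were above both WT libraries, but the difference did not pass the test (log2 fold change 0.54 ± 0.226 SE, limma adjusted p = 0.409). The lowest fold change was that of MRPL4, the least abundant member, with 21.2 and 21.1 in WT and 11.1 and 16.9 in spt4Δ (log2 fold change -0.59 ± 0.481 SE, limma adjusted p = 0.752). These 2 were chosen after their values were seen. Without spt4Δ replicate 2, 6 members were called higher (MRPL16, MRPL32, MRPL49, MRPL6, RSM25 and RSM7), and without spt4Δ replicate 1 only MRPL37 was called, as lower. Of all genes 17.1% were called higher in the first case, above the members' share, and 5.85% lower in the other. The spt4Δ replicates differed from each other more than the WT replicates did, with an interquartile range of their log2 difference over genes of 0.718 against 0.275.

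The second comparison asked what happened when Spt4 was drawn out of the nucleus within hours. In Spt4-AA the members lay above the median gene as a group while no single member passed the test. Of 53 members, 46 (86.8%) had a positive log2 fold change, where 51.3% of all genes did, and the members' median was 0.24 beside 0.01. No member was called, against 8.95% of all genes (4.72% higher and 4.23% lower), and 8 members (15.1%), all higher, had an unadjusted p under 0.05, where 13.6% of all genes were higher and 14.05% lower at that p. edgeR and DESeq2 also called no member. Both Spt4-AA libraries were above both DMSO libraries in 25 members (47.2%) and below them in 2 (3.8%), where 28.2% and 28.1% of all genes did so. The large-subunit median was 0.25, with 29 of 33 members above 0, and the small-subunit median was 0.23, with 17 of 20 above 0. With the scaling as deposited the members' median became -0.05, since the median gene fell there by 0.28. With each library set to the same total it was 0.37, and 5 members were called higher (MRPL16, MRPL32, MRPL39, MRPL51 and RSM10), a share near the 10.4% of all genes called higher there.

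The 2 Spt4-AA libraries were not alike in this. The members' median log2 fold change against the DMSO mean was 0.15 in replicate 1 and 0.39 in replicate 2, with 39 and 42 members above the DMSO mean. Without replicate 1, 18 members were called higher and 2 lower, and without replicate 2, 6 were called higher. Of all genes 19.0% were called higher and 16.3% lower in the first case, and 13.4% and 17.6% in the other. Leaving out either DMSO library gave no call.

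The members with the lowest adjusted p, chosen after their values were seen, were of both subunits. MRPL32, a large-subunit protein that is cut to its mature form by the m-AAA protease after import, had 164 and 164 rescaled normalized counts with DMSO and 254 and 224 in Spt4-AA (log2 fold change 0.54 ± 0.159 SE, limma adjusted p = 0.080). MRPL51 had 213 and 195 with DMSO and 298 and 286 in Spt4-AA, and RSM10, a small-subunit protein with a bacterial counterpart, had 216 and 187 with DMSO and 283 and 300 in Spt4-AA. The libraries did not overlap in any of these, and the adjusted p was 0.081 for MRPL51 and 0.083 for RSM10. MRPL39, which had 97.1 and 83.1 with DMSO and 128 and 139 in Spt4-AA, lies 435 bases from SPT5 in convergent orientation, and SPT5 carries the tag in 1 of the 2 DMSO strains only. The lowest members were MRPL37 (log2 fold change -0.26), MRPL22 (-0.28) and MRPL17 (-0.36), none of which passed the test.

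The third comparison asked the same of Spt5, which unlike Spt4 is essential. In Spt5-AA 19 of 53 members were called, 13 higher and 6 lower, or 24.5% and 11.3% of members. Of all genes 54.4% were called, 26.2% higher and 28.2% lower, so the share of members called higher was near that of all genes and the share called lower was smaller, a difference that was not tested. The members' median log2 fold change was 0.22 beside 0.00 for all genes, with 35 of 53 members (66.0%) above 0. Both Spt5-AA libraries were above both DMSO libraries in 26 members (49.1%) and below them in 10 (18.9%), where 38.2% and 38.8% of all genes did so. In each Spt5-AA library the members' median against the DMSO mean was 0.23. With the scaling as deposited, where the median gene fell by 1.84, the members' median was -1.61 and 50 members were called lower with none higher, as were 90.7% of all genes, so that the rises below are relative to the median gene.

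**Figure D2:**
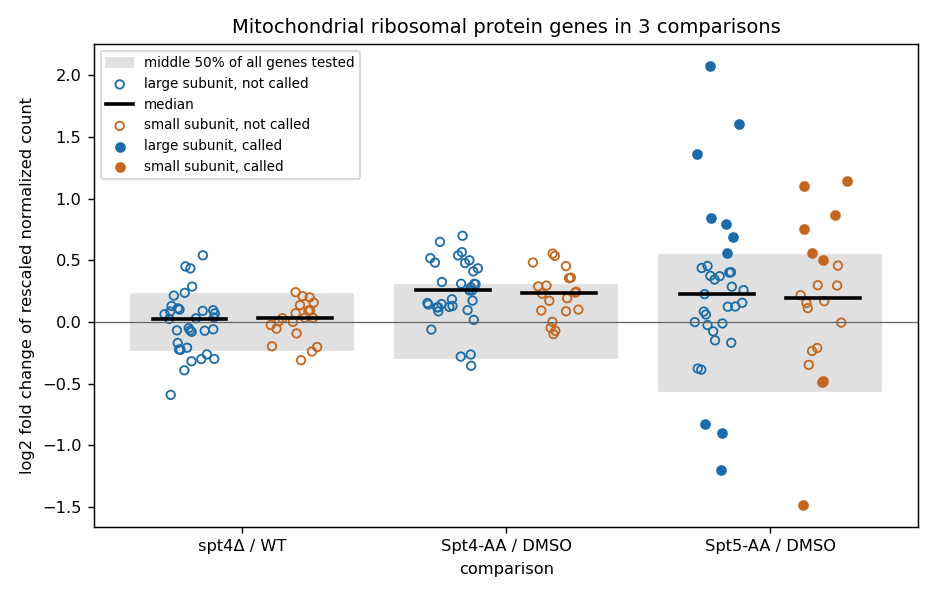
Log2 fold change of each member (points, blue for the large and orange for the small subunit, filled where called) in spt4Δ over WT, Spt4-AA over DMSO and Spt5-AA over DMSO, relative to the median gene of each table. Black lines are subunit medians and grey bands hold the middle 50% of all genes tested. No member was called in the first or the second comparison, and 13 were called higher and 6 lower in the third.

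The largest rise was in the large subunit. MRPL25 (YGR076C, chromosome VII, 637104 to 637577), a protein with no bacterial counterpart, had 6.69 and 12.4 rescaled normalized counts with DMSO and 51.1 and 34.1 in Spt5-AA (log2 fold change 2.07 ± 0.376 SE, limma adjusted p = 0.000268). These values rest on 9 and 18 reads with DMSO and 30 and 31 reads in Spt5-AA, so the size of the change is imprecise. The DMSO mean of 9.55 was below the filter of 10, so MRPL25 was tested only because of its Spt5-AA values. MRPL50 (YNR022C, chromosome XIV, 669774 to 670193), related to a bacterial large-subunit protein, had 38.6 and 40.0 with DMSO and 134 and 110 in Spt5-AA (log2 fold change 1.61 ± 0.196 SE, limma adjusted p = 6.30e-06). The DMSO libraries differed by little here and the rise was about 3.04-fold. MRPL31 (YKL138C, chromosome XI, 185286 to 185681) had 15.6 and 13.8 with DMSO and 32.3 and 47.3 in Spt5-AA (log2 fold change 1.36 ± 0.316 SE, limma adjusted p = 0.00199). The levels of these large-subunit transcripts per kb in WT were below the members' median.

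In the small subunit RSM22 (YKL155C, chromosome XI, 159456 to 161342), a protein similar to methyltransferases and the sole member without a Puf3 motif, had 71.3 and 76.5 with DMSO and 194 and 139 in Spt5-AA (log2 fold change 1.14 ± 0.187 SE, limma adjusted p = 0.000107). RSM19 (YNR037C, chromosome XIV, 695052 to 695327), related to a bacterial small-subunit protein, had 64.6 and 76.5 with DMSO and 138 and 167 in Spt5-AA (log2 fold change 1.10 ± 0.179 SE, limma adjusted p = 0.000104). RSM19 was the fifth most abundant member in WT, so the rises were not limited to rare transcripts. RSM27 (YGR215W, chromosome VII, 922175 to 922507) had 40.9 and 24.8 with DMSO and 59.6 and 58.3 in Spt5-AA (log2 fold change 0.87 ± 0.261 SE, limma adjusted p = 0.0110). It did not pass the test without the DMSO library of the Spt5-FRB strain (limma adjusted p = 0.210) or under DESeq2 (adjusted p = 0.067). The other 7 members called higher had log2 fold changes from 0.50 to 0.84 (MRPL16, MRPL19, MRPL40 and MRPL51 of the large subunit, MRPS5, MRPS17 and RSM24 of the small). MRPL16, which was also the highest member in spt4Δ, had 92.1 and 88.2 with DMSO and 163 and 162 in Spt5-AA.

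The falls included the most abundant member. MRPL37 (YBR268W, chromosome II, 741299 to 741616) had 175 and 229 with DMSO and 104 and 71.5 in Spt5-AA (log2 fold change -1.20 ± 0.197 SE, limma adjusted p = 0.000109). MRPL22 (YNL177C, chromosome XIV, 303686 to 304615), related to a bacterial protein that lines the exit tunnel of the large subunit, had 184 and 172 with DMSO and 85.1 and 106 in Spt5-AA (log2 fold change -0.90 ± 0.167 SE, limma adjusted p = 0.000337). MRPL7 (YDR237W, chromosome IV, 936615 to 937493), also of a family shared with bacteria, had 223 and 203 with DMSO and 141 and 101 in Spt5-AA (log2 fold change -0.83 ± 0.175 SE, limma adjusted p = 0.000948). In each of them both depleted libraries lay well below both controls.

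RSM26 (YJR101W, chromosome X, 618234 to 619034), a small-subunit protein related to manganese superoxide dismutases, had the lowest fold change, and its replicates were far apart. It had 107 and 119 with DMSO and 22.1 and 70.4 in Spt5-AA, from 13 and 64 reads (log2 fold change -1.48 ± 0.356 SE, limma adjusted p = 0.00247). The log2 fold change was -0.67 without replicate 1 and -2.30 without replicate 2. MRPS9 (YBR146W, chromosome II, 535260 to 536096) and MRPS18 (YNL306W, chromosome XIV, 58155 to 58808), both related to bacterial small-subunit proteins, fell by less, with log2 fold changes of -0.49 and -0.48 (limma adjusted p = 0.0437 and 0.0243). MRPS9 had 80.2 and 81.3 with DMSO and 54.5 and 60.5 in Spt5-AA, and MRPS18 had 166 and 183 with DMSO and 111 and 141 in Spt5-AA. Neither passed the test under DESeq2 or when either DMSO library was left out.

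**Figure D3:**
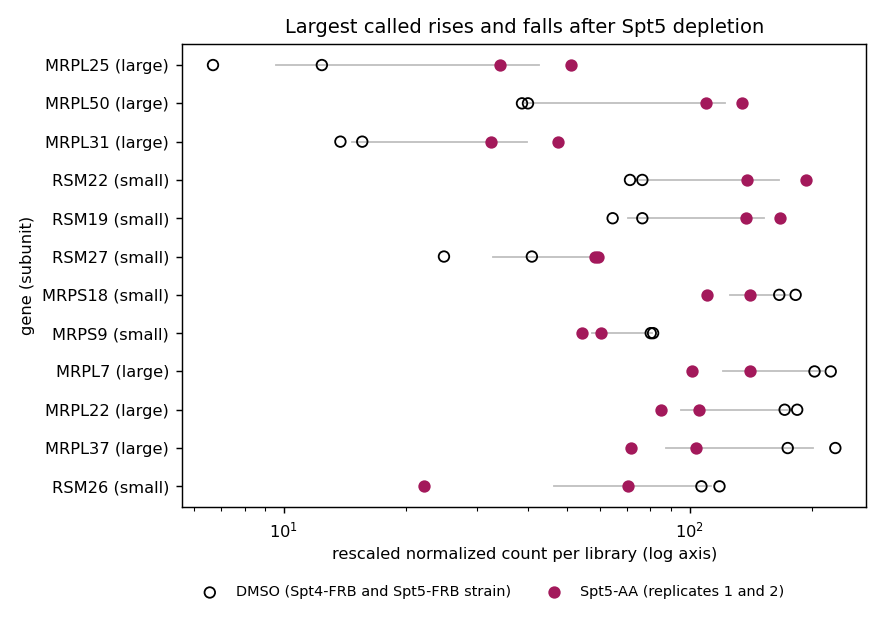
Rescaled normalized count (log axis) in each DMSO library (open points) and each Spt5-AA library (filled points) for the 6 members with the largest called rise and the 6 with the largest called fall, with a grey line joining the group means. No member shown has overlapping groups, and the replicates of RSM26 are the furthest apart, at 22.1 and 70.4.

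The size of the Spt5-AA set of calls depended on the library and the tool. Without the Spt5-FRB DMSO library 12 members were called, all of them among the 19, and without the Spt4-FRB DMSO library 14, while the share of all genes called went from 54.4% to 40.5% and 41.8%. DESeq2 called 8 higher and 3 lower, and edgeR 14 higher and 7 lower, of which 11 and 19 were among the 19. Over all genes DESeq2 called 20.0% higher and 21.9% lower, and edgeR 27.9% and 28.6%. The adjusted p stayed under 0.05 with each library left out in turn for MRPL25, MRPL50, MRPL31, RSM22, RSM19, MRPL16, MRPS17, MRPL37, MRPL22, MRPL7 and RSM26, of which RSM26 did not pass under DESeq2 (adjusted p = 0.166).

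The median log2 fold changes of the large and the small subunit lay close together in each comparison. In Spt5-AA the large-subunit median was 0.22, with 7 members called higher and 3 lower of 33 (21.2% and 9.1%). The small-subunit median was 0.19, with 6 called higher and 3 lower of 20 (30.0% and 15.0%). Of all genes 26.2% were called higher and 28.2% lower. The difference of the medians was 0.03, and leaving out a library gave values between -0.12 and 0.02, so that its sign is not settled. Sums gave another view, since they are led by the abundant members and, as ratios within a library, do not depend on scaling. The summed level per kb of the large subunit over that of the small subunit was 1.62 and 1.63 in WT and 1.60 and 1.62 in spt4Δ. It was 1.75 and 1.76 with DMSO, 1.78 and 1.66 in Spt4-AA, and 1.55 and 1.46 in Spt5-AA. Both Spt5-AA libraries were thus below both DMSO libraries. Without MRPL37 the ratio was 1.53 and 1.47 with DMSO and 1.44 and 1.38 in Spt5-AA, a smaller gap. The ratio of the median levels per kb, large over small, did not follow the sums. It was 0.718 and 0.781 with DMSO, 0.869 and 0.861 in Spt4-AA, and 0.722 and 0.954 in Spt5-AA. By this ratio both Spt4-AA libraries were above both DMSO libraries, while the Spt5-AA and DMSO libraries overlapped.

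Further ratios within libraries set the members against other genes. The reads on the members made up 0.303% and 0.297% of all reads on genes with DMSO, 0.401% and 0.378% in Spt4-AA and 0.358% and 0.361% in Spt5-AA. The groups did not overlap in either comparison. In the other strain pair the values were 0.291% and 0.322% in WT and 0.317% and 0.324% in spt4Δ, which overlapped. Such a share also rises when other transcripts fall, and its source was not tested. The summed level per kb of the cytosolic ribosomal protein genes, which encode the ribosome outside mitochondria, over that of the members was 138 and 141 with DMSO, 84.2 and 85.2 in Spt4-AA and 86.2 and 76.1 in Spt5-AA. It was 125 and 119 in WT and 112 and 101 in spt4Δ, so that in all 3 comparisons both libraries lacking Spt4 or Spt5 were below both controls. With 2 libraries a group an exact permutation test cannot go below a two-sided p of 0.333, and none was run on these ratios.

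**Figure D4:**
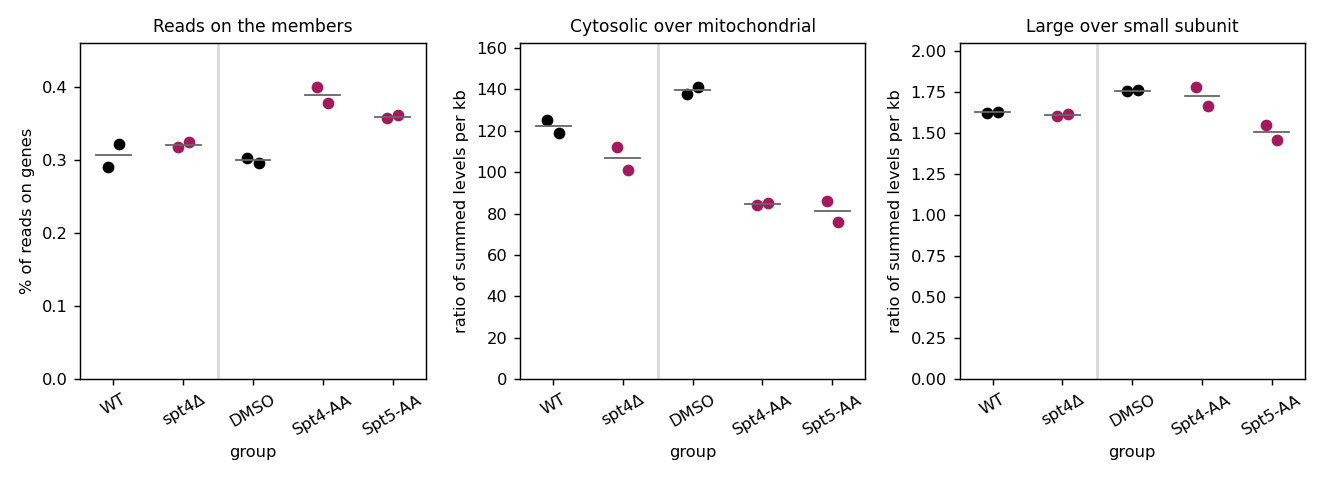
Per library (points) and group mean (lines), the reads on the 53 members as a percent of reads on genes, the summed level per kb of cytosolic over mitochondrial ribosomal protein genes, and that of large-subunit over small-subunit members. The DMSO libraries are at 138 and 141 in the middle panel and the Spt4-AA and Spt5-AA libraries between 76.1 and 86.2.

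The medians of the cytosolic and the mitochondrial ribosomal protein genes lay on opposite sides of the median gene in Spt4-AA and Spt5-AA. In the scaling as deposited the members' medians were -0.05 and -1.61, beside -0.28 and -1.84 for all genes. The members' medians thus stayed above the median gene there, though below 0. In spt4Δ the members' median minus that of all genes was 0.03, but -0.11 without WT replicate 1 and -0.09 without spt4Δ replicate 1, so that its side of the median gene turned with 1 library. The cytosolic genes had a median log2 fold change of -0.26 in spt4Δ (0 of 137 called, 16 lower at an unadjusted p under 0.05), -0.53 in Spt4-AA (24 of 135 called lower and none higher) and -1.48 in Spt5-AA (123 of 135 called lower and 1 higher), where the members had 0.03, 0.24 and 0.22. RPS28B was the cytosolic gene with the largest fall in Spt5-AA (log2 fold change -3.34), and RPL41B was the 1 called higher (1.19). In Spt4-AA the largest fall was that of RPL8A (-1.32). Of all genes 4.23% were called lower in Spt4-AA and 28.2% in Spt5-AA. In spt4Δ 1.04% of all genes were called and 4.77% were lower at an unadjusted p under 0.05.

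The nuclear genes for respiratory chain subunits, which assemble with the products of the mitochondrial ribosome, had higher medians than the members in each comparison. They were 0.21 in spt4Δ, with none of 38 called and 4 higher at an unadjusted p under 0.05. Of all genes 1.04% were called there and 5.93% were higher at that p. In Spt4-AA the median was 0.49 with 10 of 37 called higher, against 4.72% of all genes. In Spt5-AA it was 0.36 with 17 of 36 called higher and 4 lower, against 26.2% and 28.2% of all genes. SDH2, a subunit of succinate dehydrogenase, had the largest rise in both depletions (log2 fold changes 1.54 and 1.79), and COX4, of cytochrome c oxidase, the largest called fall in Spt5-AA (-0.46). The summed level per kb of these genes over that of the members was 1.57 and 1.60 with DMSO, 1.92 and 1.81 in Spt4-AA and 1.78 and 2.02 in Spt5-AA.

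Other parts of the mitochondrial translation machinery were described from lists of genes, likewise chosen with earlier results of these data known. The subunits of the mitochondrial ribosome outside the 54 names had medians of -0.01, 0.28 and 0.26, close to those of the members. Of 24 tested, MRP51 alone was called in Spt4-AA (log2 fold change 0.73, limma adjusted p = 0.049). In Spt5-AA 8 were called higher and 2 lower, with MRP17 at 1.56 and MNP1 at -1.01 at the extremes. In Spt5-AA 5 of 12 mitochondrial aminoacyl-tRNA synthetases were called higher and 1 lower, with MSF1 at 0.91 and MSY1 at -0.72. The Spt5-AA counts of these lists stand beside 26.2% of all genes called higher and 28.2% lower. In Spt4-AA 4.72% of all genes were called higher and 4.23% lower. Of 11 translation factors, TUF1, the mitochondrial elongation factor Tu, was called higher in Spt4-AA (0.73), and 3 were called higher and 2 lower in Spt5-AA, among them MEF2 at 1.30 and MRF1, a release factor, at -0.91. Of 15 translational activators 4 were called higher and 3 lower in Spt5-AA, with CBP6 at 2.29 and AEP2 at -0.84. Of 13 assembly and rRNA modification factors 2 were called lower, the helicase MSS116 most (-0.84). None of these lists had a called gene in spt4Δ, where 1 translation factor had an unadjusted p under 0.05. Of all genes 1.04% were called there and 10.7% had such a p.

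The Puf3 motif was set against the fold changes over all genes. Genes with the motif had a median log2 fold change of 0.11 in Spt4-AA (814 genes) and 0.09 in Spt5-AA (807 genes), beside -0.01 and -0.03 for genes without it. In spt4Δ the medians were -0.0044 with it (892 genes) and -0.0043 without it (4237 genes). The members' medians of 0.24 and 0.22 were higher than those of all genes with the motif, of which the members are a part. PUF3 itself, looked up after the other values were seen, had rescaled normalized counts of 130 and 110 with DMSO and 74.9 and 85.9 in Spt5-AA (log2 fold change -0.57 ± 0.178 SE, limma adjusted p = 0.0132). In Spt4-AA it had 205 and 173 with DMSO and 174 and 121, which overlapped, and in spt4Δ 211 and 230 against 294 and 272 in WT, with neither called.

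The form of the motif was examined after it was seen that all 6 members called lower in Spt5-AA held TGTAAATA, as the sequences above show, so the split is a description with no test. Of the 28 members with TGTAAATA, 5 were called higher and 6 lower, with a median log2 fold change of 0.13. Of the 24 with other forms only, 7 were called higher and none lower, with a median of 0.30. Over all genes the split did not have this direction, with medians of 0.13 for 251 genes with TGTAAATA and 0.07 for 556 with other forms only. Of these genes 26.7% and 26.3% were called higher and 20.3% and 27.2% lower, so the members' 21.4% lower with TGTAAATA was near the share of all such genes. Members with TGTAAATA were also more abundant in WT, with a median of 486 per kb against 293, and its part in the result was not tested. Over the members the log2 fold change in Spt5-AA had a Spearman's rho of -0.25 with the level per kb in WT, and over 4585 genes of -0.39. These are descriptions across genes of the same libraries.

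**Figure D5:**
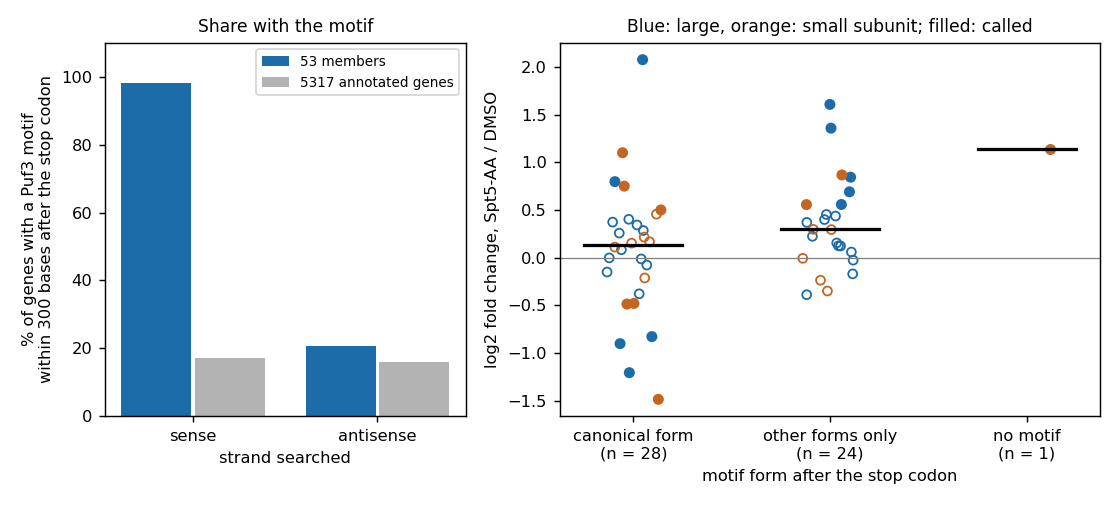
Left, share of the 53 members and of 5317 annotated genes with the Puf3 motif within 300 bases after the stop codon, by strand. Right, log2 fold change in Spt5-AA of members with the canonical form TGTAAATA, with other forms only or with no motif, with medians as black lines. On the sense strand 98.1% of members and 17.2% of all genes hold the motif, and all 6 members called lower have the canonical form.

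Some called members had neighbours that were called as well in Spt5-AA, where 54.4% of all genes were called. A few are given, chosen after their values were seen, and a link between neighbours was not tested. RSM22 rose while RPS27A, which is convergent 243 bases downstream, fell (log2 fold change -1.56). RSM27 rose 386 bases downstream of RPS0A (-1.49), in the same direction of transcription, and MRPL25 rose 228 bases upstream of PRP38 (-1.49). RPS27A and RPS0A are cytosolic ribosomal protein genes, of which 123 of 135 were called lower. MRPL37 fell 276 bases downstream of REI1 (-1.43), which fell as well, and faces SDH8 (1.20) at 543 bases. Distances are between coding sequences in the R64 annotation.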

How the data were processed

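RNA was measured by RNA-seq in 10 libraries, grouped by their labels. The authors deposited 3 tables of normalized counts, 1 for each comparison, in which the read count of a gene in a library is divided by 1 factor per library, so the values are a signal and not raw counts. The submitters' processing notes name Trim Galore, TopHat, DESeq2 and the builds sacCer3, R64 and ASM294v2. The counter, the annotation, the strand setting and the source of the factors are not given in the sources used here. The 3 deposited tables of DESeq2 comparisons hold the authors' own fold changes and p-values and were not used. The number of per-sample columns left out was 0.

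Whole reads were recovered from the deposited signal: 100% of values were whole multiples of 1 read within 0.01. Reads are not independent molecules, so read numbers give counting error alone. Each library was rescaled by its median ratio to the geometric mean library of its table. In the table of spt4Δ and WT these ratios were 0.750, 0.750, 2.16 and 0.835 for WT replicates 1 and 2 and spt4Δ replicates 1 and 2, and in that of Spt5-AA 1.86 and 1.97 for DMSO against 0.499 and 0.556. Tables were scaled separately, and each comparison was fitted within its own table. Genes with a mean of at least 10 were tested with limma 3.58.1 in R 4.3.3, with a trend of the variance, on log2(rescaled normalized count + 1). Tests were two-sided, p-values were adjusted over all genes tested (Benjamini-Hochberg), and calls needed an adjusted p under 0.05. Fold changes are on this scale, which understates changes of low genes. P-values measure the spread between libraries of a group. The labels call them replicates, except that the 2 DMSO libraries come from different strains.

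Alternatives were the scaling as deposited, the same total for each library, pseudocounts of 0.1 and 10, no filter, a mean of at least 100, count tests on the recovered reads (the quasi-likelihood test of edgeR 4.0.16 after TMM scaling, and DESeq2 1.42.0), each library left out in turn, and the replicate number as a block in spt4Δ and WT. The test was also run on simulated counts with changes larger than those of most members. That run does not show how well small changes are found in these libraries. Lengths, positions and sequences came from the RefSeq R64 annotation, which held all 53 members and lacked 255, 119 and 119 of the IDs in the tables. Summaries used Python 3.11.15 with pandas 2.3.3 and numpy 2.4.6.

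The members and the lists were chosen with earlier results of these data known. Members named are, for each comparison, every called member where 12 or fewer were called and otherwise the 6 largest rises and 6 largest falls without overlap, the 3 highest and 3 lowest levels per kb in WT, and of each other list the called genes with the largest rise and fall. Others were chosen after their values were seen.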

Additional observations from a re-analysis of the deposited data

How the results depend on the processing

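The scaling moved the values most. In the scaling as deposited the members' median log2 fold change was 0.87 in spt4Δ, -0.055 in Spt4-AA and -1.61 in Spt5-AA, and 50 members were called in Spt5-AA, all lower, against 13 higher and 6 lower, where 90.7% of all genes were called lower. Of the members called higher in Spt5-AA, MRPL16 was then at -1.003, MRPS5 at -1.34, RSM24 at -1.29, RSM27 at -0.95, MRPL31 at -0.43, RSM22 at -0.70, MRPS17 at -1.10, MRPL19 at -1.01, MRPL50 at -0.23, RSM19 at -0.74, MRPL40 at -1.13 and MRPL51 at -1.29, whereas MRPL25 stayed above 0 at 0.32 without passing the test. With the same total for each library 5 members were called in Spt4-AA, and the medians were 0.37 in Spt4-AA and 0.33 in Spt5-AA. In Spt5-AA, a pseudocount of 10 gave a median of 0.18. A mean of at least 100 left 17 members with 10 called, where 68.7% of all genes were called. The members' median was 0.17 and the large-minus-small difference -0.42. This mean is over both groups, so RSM22, with group means of 73.9 with DMSO and 166 in Spt5-AA, passed through Spt5-AA. RSM26, with 113 and 46.3, did not pass. The part of this choice of members in the difference was not tested. edgeR gave a difference of -0.024, and DESeq2 called 11 members, with 41.9% of all genes called. The cause of the lower number under DESeq2 was not tested.

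Leaving out each library in turn gave 0 to 6 members called in spt4Δ, 0 to 20 in Spt4-AA and 12 to 23 in Spt5-AA. The highest of these counts came where 30.0%, 35.2% and 58.5% of all genes were called. Their medians ranged from -0.11 to 0.11, from 0.15 to 0.39 and from 0.18 to 0.24. The large-minus-small differences ranged from -0.077 to 0.041, from -0.150 to 0.079 and from -0.121 to 0.017. A lone library is then assumed to vary like the other group.

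With the replicate block in spt4Δ and WT 0 members were called and their median was 0.03, while 90 genes in all were called against 55 without it. The deviations of same-numbered libraries had a correlation of -0.37 over 4115 genes. A crossed replicate block, added after the data were seen, called 267 genes and 0 members. No paired analysis was possible because the DMSO libraries carry no replicate number, for Spt4-AA and Spt5-AA. Depth limits Spt5-AA most, where the median member had 44 and 62 reads.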
